A study of Mus musculus with 4 samples.

Results

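The 10 genes described here encode ligands, receptors and antagonists of bone morphogenetic protein (BMP) signalling, and were picked by gene symbol from a table of 22608 genes. They are the ligand genes Bmp4, Bmp2 and Bmp7, the protease gene Bmp1, the receptor genes Bmpr1a, Bmpr1b and Bmpr2, the secreted antagonist genes Nog and Chrd, and the decoy receptor gene Bambi. All 10 were found in the table. Polyadenylated RNA was sequenced in 2 knockdown and 2 control libraries. Knockdown cells carried a short hairpin RNA (shRNA) against the long non-coding RNA lnc-OPC. Control cells carried one against luciferase, an enzyme that mouse cells lack. In every library the cells were neural stem cells (NSCs) from the cerebral cortex of embryonic CD-1 mice, expanded with EGF and FGF, infected with the shRNA lentivirus, selected with puromycin and then placed for 3 days in medium with CNTF and the thyroid hormone T3, which turns NSCs into oligodendrocyte precursor cells (OPCs). Both knockdown libraries carried the same hairpin, named sh-lnc-OPC2 in the table, and no row of the table is named for lnc-OPC, so the depth of its knockdown was not analysed here.

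BMPs are secreted dimers that bind a complex of type I and type II receptor kinases on the cell surface. The activated type I receptor phosphorylates Smad1, Smad5 and Smad9, which enter the nucleus with Smad4 and switch on targets such as the Id genes and the inhibitory Smads. Secreted antagonists hold the ligands away from their receptors. In neural precursors, BMP signalling is known to favour astrocytes and to hold back oligodendrocytes, and blocking it with Noggin, the product of Nog, favours oligodendrocytes.

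Library depth was even, with 49663413 and 50098577 reads in genes in the knockdown libraries and 49584378 and 46144779 in the control libraries. Levels are given in CPM (reads of a gene per 1000000 reads in genes, after scaling of the library), and genes were called at an edgeR adjusted p under 0.05. Among all genes tested, 23.5% were called higher and 23.3% lower. Marker genes of the labelled lineage were present in all libraries. The astrocyte list summed to 7487 to 7610 CPM in knockdown libraries and 5176 to 5261 CPM in control libraries, with 5 of 11 tested members higher and 4 lower. Most of the rise of this sum came from Gfap and Gja1, which averaged 2358 and 754 CPM in the knockdown and 736 and 231 CPM in the control. Among the 4 lower genes, S100b averaged 5.90 CPM in the knockdown and 18.4 CPM in the control. The NSC list summed to 16316 to 16638 CPM in knockdown libraries and 13492 to 13645 CPM in control libraries, with 6 of 9 members higher and 1 lower. Vim made up most of this sum, at a mean of 11786 CPM in the knockdown and 8617 CPM in the control. The 1 lower gene was Nes, at a mean of 1520 CPM in the knockdown and 1914 CPM in the control (edgeR adjusted p = 1.17e-10). Of the endothelial list, Cdh5, Cldn5 and Emcn had no read in any library, and Kdr had 36.3 and 35.6 CPM in the knockdown libraries and 78.3 and 73.2 CPM in the control libraries (edgeR adjusted p = 5.14e-19). Of the microglia list, Cx3cr1 and Tmem119 had no read in any library, and the tested genes P2ry12 and Cd68 had 25 to 45 reads and were not called.

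Promoter sequences are shown for the member with the largest decrease, Bmp4, and for the type I receptor pair Bmpr1a and Bmpr1b, whose transcripts moved in opposite directions. Each runs 5′ to 3′ from 250 bases before to 50 bases after the transcription start that RefSeq gives on the mouse build GRCm38.p6, for the first start listed. All 3 genes lie on the minus strand, Bmp4 at chr14:46390620-46390919, Bmpr1a at chr14:34502497-34502796 and Bmpr1b at chr3:141982215-141982514. Capitals mark the words searched on both strands, which were the E-box CANNTG bound by basic helix-loop-helix factors such as OLIG2, the GC element GGCGCC bound by BMP-activated Smads, and the Sox word AACAAT, which reads ATTGTT on the other strand.
Bmp4: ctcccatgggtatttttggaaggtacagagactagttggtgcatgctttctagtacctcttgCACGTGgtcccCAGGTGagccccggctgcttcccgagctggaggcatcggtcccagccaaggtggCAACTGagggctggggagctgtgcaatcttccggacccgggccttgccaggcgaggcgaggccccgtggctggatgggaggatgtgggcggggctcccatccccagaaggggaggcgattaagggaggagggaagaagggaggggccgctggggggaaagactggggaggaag
Bmpr1a: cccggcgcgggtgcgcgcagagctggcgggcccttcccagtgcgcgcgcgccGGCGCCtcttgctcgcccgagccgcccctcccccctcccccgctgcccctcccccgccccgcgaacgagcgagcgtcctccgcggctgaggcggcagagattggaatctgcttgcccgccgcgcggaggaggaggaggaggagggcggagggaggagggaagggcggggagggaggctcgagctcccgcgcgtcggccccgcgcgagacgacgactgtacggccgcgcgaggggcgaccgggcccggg
Bmpr1b: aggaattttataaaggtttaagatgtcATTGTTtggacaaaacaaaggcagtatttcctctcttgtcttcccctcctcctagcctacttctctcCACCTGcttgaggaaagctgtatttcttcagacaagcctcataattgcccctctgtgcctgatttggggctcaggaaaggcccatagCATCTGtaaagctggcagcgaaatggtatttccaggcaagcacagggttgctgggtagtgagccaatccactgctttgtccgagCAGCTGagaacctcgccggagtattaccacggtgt

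The Bmp4 promoter held 3 E-boxes, with CACGTG starting 188 bases, CAGGTG 177 bases and CAACTG 123 bases before the start, and neither of the other words. The Bmpr1a promoter, with a GC content of 79.3%, held no E-box and 1 GGCGCC word 198 bases before the start. The Bmpr1b promoter, with a GC content of 48.3%, held 3 E-boxes, among them CAGCTG at base 16 after the start, and 1 ATTGTT word 223 bases before it. RefSeq lists 2 further starts of Bmpr1b, of which the second start held no E-box and 1 AACAAT word and the third start held 1 E-box and no Sox word. None of the marked words overlapped. E-boxes are common, since 72.3% of 32851 promoters of this length held at least 1, against 11.9% for GGCGCC and 10.7% for the Sox word. Of the 10 members, 5 had a promoter in the set searched. That set left out sequences of another length and, for the members, chromosome 18, where Bambi lies. These matches describe letters only and say nothing of binding.

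Of the 10 members, all of which passed the filter on low counts, 6 fell, 1 rose and 3 were not called. Among all 14090 genes tested, 46.7% were called, 23.3% in the lower and 23.5% in the higher direction, so a call by itself does not set a member apart from other genes. Of all calls 50.3% were in the higher direction, against 40.3% with library size as the only scaling, which left the members' calls at 6 lower and 1 higher. The calls made up 70% of the members. The median log2 change of the members was -0.15, against 0.00 over all genes tested. In 8 members both knockdown libraries lay on one side of both control libraries, a separation that 72.6% of all tested genes showed. With 2 libraries a group, an exact permutation test over libraries cannot give a two-sided p below 0.333, so calls rest on the spread that edgeR pools over genes.

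**Figure D1:**
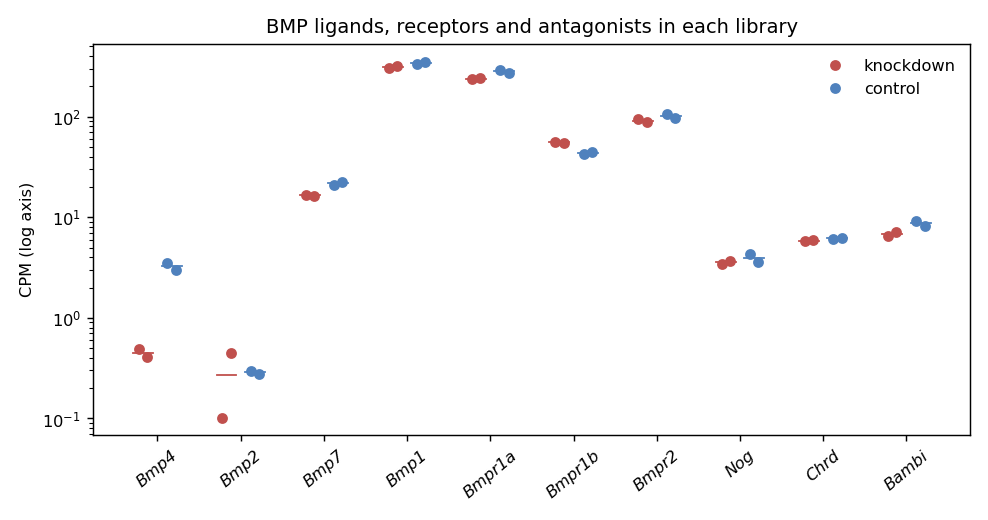
Level of each of the 10 members in CPM on a log axis, with one point per library (knockdown left of control, n = 2 each) and a bar at the group mean. The Bmp4 points of the groups lie far apart, at 0.404 and 0.490 CPM in knockdown libraries and 3.00 and 3.53 CPM in control libraries, while the 2 knockdown points of Bmp2 lie on either side of its control points.

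Among the ligands, Bmp4 fell 7.27-fold, Bmp7 fell 1.32-fold, and Bmp2 was rare and not called. Bmp4, a ligand that drives precursors toward astrocytes and is also made by cells of the oligodendrocyte lineage, had 24 and 20 reads in the knockdown libraries, against 177 and 140 reads in the control libraries. The groups were far apart, and counting error alone (exact Poisson 95% intervals) would place the higher knockdown count between 15.4 and 35.7 and the lower control count between 118 and 165. The level was 0.447 ± 0.0602 CPM in the knockdown and 3.26 ± 0.374 CPM in the control (SD, n = 2). This was a log2 change, knockdown minus control, of -2.86 (SE 0.27, edgeR adjusted p = 1.45e-10). A called decrease of more than 2-fold was seen in 2.26% of tested genes, and Bmp4 was the only member with one. Among 3150 genes called lower and averaging 1 CPM or more, Bmp4 had rank 8 by fold change. Exons of Bmp4 share 89 bases with Gm15217 on the other strand, a gene that had 0 reads in every library.

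Bmp7, a ligand of the subgroup that also holds Bmp6, was the most abundant of the 3 ligand members per kilobase. It measured 16.8 and 16.2 CPM in the knockdown libraries, against 21.0 and 22.6 CPM in the control libraries, and the groups did not overlap. Its log2 change was -0.40 (SE 0.07, edgeR adjusted p = 2.26e-05). Bmp2, a close relative of Bmp4, had 5 and 22 reads in the knockdown libraries and 15 and 13 reads in the control libraries. Its knockdown libraries therefore lay on either side of both controls, and the log2 change of -0.08 had a 95% interval from -1.28 to 1.13 (edgeR adjusted p = 0.93). Counts of Bmp4, Bmp7 and Bmp2 together came to 17.4 and 17.0 CPM in the knockdown libraries and 24.8 and 25.9 CPM in the control libraries. Per kilobase of exon, Bmp4 made up 4.92% and 4.16% of the transcripts of these ligands in the knockdown libraries, against 22.8% and 18.9% in the control libraries. Per kilobase of coding sequence its share was 2.96% and 2.50% in the knockdown libraries, against 14.8% and 12.1% in the control libraries.

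Bmp1, despite its name, encodes a metalloprotease that trims procollagens and cuts Chordin, which frees BMPs. It was abundant and changed little, with 301 and 316 CPM in the knockdown libraries and 334 and 351 CPM in the control libraries. The difference was small but exceeded the spread of replicates (log2 change -0.15, SE 0.03, edgeR adjusted p = 0.000137).

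The type I receptor genes changed in opposite directions. Bmpr1a, the type I receptor found on most neural precursors, measured 236 and 241 CPM in the knockdown libraries, against 290 and 274 CPM in the control libraries. Both knockdown libraries were below both controls (log2 change -0.24, SE 0.03, edgeR adjusted p = 6.38e-08). Exons of Bmpr1a share 290 bases with Gm17110 on the other strand, an antisense gene for which no counts were given, and the library kit does not mark strand. Bmpr1b, a close relative of Bmpr1a that is also a type I receptor, was the only member that rose, with 56.4 and 54.7 CPM in the knockdown libraries and 42.5 and 44.4 CPM in the control libraries. Its log2 change was 0.35 (SE 0.05, edgeR adjusted p = 2.18e-07). Per kilobase of exon, Bmpr1b accounted for 20.3% and 19.5% of the transcripts of the pair in the knockdown libraries, against 13.5% and 14.7% in the control libraries. Per kilobase of coding sequence the mean shares were 19.8% in the knockdown and 14.05% in the control. The sum of the pair was 292 and 295 CPM in the knockdown libraries and 333 and 318 CPM in the control libraries.

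Bmpr2, the type II receptor that phosphorylates the type I receptor, had 94.1 and 88.2 CPM in the knockdown libraries and 105 and 97.9 CPM in the control libraries. The groups were separate by a narrow margin, and the log2 change was -0.16 (SE 0.04, edgeR adjusted p = 0.00175). The call was lost without knockdown replicate 2 (edgeR adjusted p = 0.0534, log2 change -0.11) and without control replicate 1 (edgeR adjusted p = 0.131, log2 change -0.10).

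Neither secreted antagonist among the members passed the test. Nog, whose product Noggin binds BMP2 and BMP4 tightly, measured 3.45 and 3.66 CPM in the knockdown libraries, against 4.26 and 3.57 CPM in the control libraries. The groups overlapped, and the 95% interval of the log2 change ran from -0.48 to 0.19 (edgeR adjusted p = 0.501). Chrd, which encodes Chordin, measured 5.81 and 5.92 CPM in the knockdown libraries and 6.13 and 6.16 CPM in the control libraries. Its knockdown libraries were slightly lower, within an interval from -0.33 to 0.19 on the log2 scale (edgeR adjusted p = 0.698). Its exons share 239 bases with Thpo on the other strand, and the library kit does not mark strand. Bambi, a membrane protein shaped like a type I receptor but without a kinase, is induced by BMP and dampens the signal. It had 6.49 and 7.06 CPM in the knockdown libraries and 9.26 and 8.11 CPM in the control libraries, so it fell by 0.36 on the log2 scale (SE 0.11, edgeR adjusted p = 0.00997). This call was lost without knockdown replicate 1 (edgeR adjusted p = 0.0695), without control replicate 1 (edgeR adjusted p = 0.161) and with the DESeq2 test (DESeq2 adjusted p = 0.0599).

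**Figure D2:**
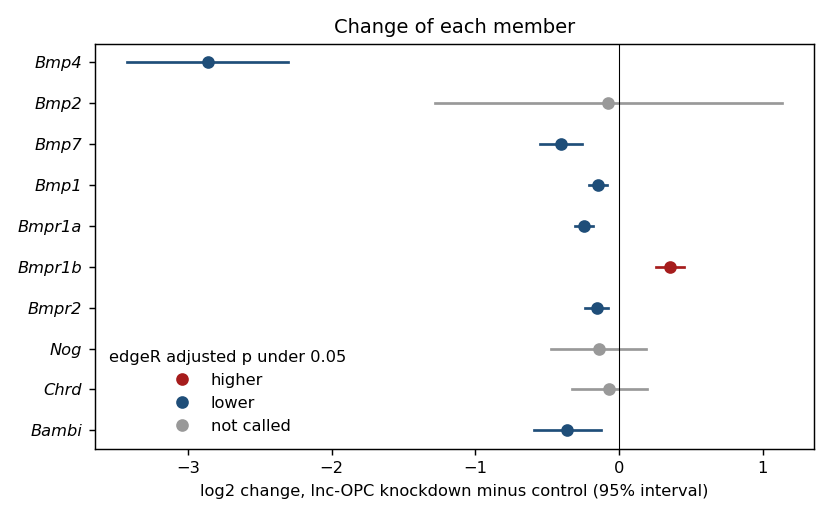
Log2 change of each member, lnc-OPC knockdown minus control, with its 95% interval from the edgeR fit (2 libraries per group), coloured by call. Bmp4 lies at -2.86, Bmpr1b at 0.35 is the only one called higher, and the intervals of Bmp2, Nog and Chrd cross 0.

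Levels were compared between genes per kilobase of exon and, as an alternative, of coding sequence. In the knockdown the order was Bmpr1a (37.5 ± 0.549 CPM per kilobase), Bmp1 (34.8 ± 1.18), Bmpr1b (9.31 ± 0.201), Bmpr2 (5.07 ± 0.234), Bmp7 (4.10 ± 0.114), Nog (2.10 ± 0.0889), Bambi (1.33 ± 0.0796), Chrd (0.938 ± 0.0126), Bmp4 (0.199 ± 0.0268) and Bmp2 (0.0769 ± 0.0682). In the control, Bmpr1a again led with 44.4 ± 1.81 CPM per kilobase, and Bmp4, at 1.45 ± 0.166, stood above Chrd, at 0.983 ± 0.00335. The control libraries of the neighbours Bmpr2 and Bmp7 overlapped, at 5.65 ± 0.289 and 5.43 ± 0.283, and no other neighbours did in either group. The kinase receptors thus exceeded the ligands among these transcripts in both groups, apart from that overlap. By coding length the order was the same but for Bmpr2 above Bmpr1b in the control and Bambi above Nog in both groups, and the knockdown libraries of Bmp4 and Bmp2 then overlapped.

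The genes whose levels across the 4 libraries were most like those of Bmp4 were Enpp6, a marker of newly formed oligodendrocytes, the non-coding gene 9630013A20Rik, the tight junction gene Cldn19, Olfml2a and Aim1. Their root mean square distance to Bmp4, taken between log2 CPM values (prior count 2) centred on each gene's own mean, was 0.128, 0.137, 0.155, 0.187 and 0.199 log2 units, among 12685 other genes that averaged 1 CPM or more. With 2 libraries a group, this distance mainly measures how near a gene's change between the groups came to that of Bmp4, and is a description only. The nearest gene, Enpp6, had 5.49 and 3.88 CPM in the knockdown libraries and 31.2 and 24.8 CPM in the control libraries. Some marker lists fell beside Bmp4, while the astrocyte and NSC sums given above were higher in the knockdown. Of 8 tested neuron genes, 3 were higher and 2 lower. Of 2 tested fibroblast and meningeal genes, 1 was higher and 0 were lower. Of 14 oligodendrocyte lineage genes, 13 were lower and 1 was not called, and the list summed to 2258 to 2357 CPM in knockdown libraries and 3530 to 3652 CPM in control libraries. For comparison, 23.3% of all genes tested were called lower and 23.5% higher. Of 6 tested mural cell genes, 4 were lower and 1 higher, with a sum of 331 to 335 CPM in knockdown libraries and 682 to 690 CPM in control libraries, while the defining mural genes Rgs5 and Abcc9 had at most 5 reads in any library. Pdgfrb, also a defining mural gene, had 0.367 and 0.485 CPM in the knockdown libraries and 9.48 and 8.00 CPM in the control libraries. Kcnj8, the 1 higher gene of this list, had 27 and 38 reads in the knockdown libraries and 9 and 6 reads in the control libraries (edgeR adjusted p = 0.00133). The part of these cell types in the Bmp4 decrease was not tested, and in bulk RNA fewer cells of a type and less RNA per cell cannot be told apart.

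The other ligands of the family were mostly silent. Of 17 other BMP and GDF genes, 13 did not pass the filter, and none of those had more than 9 reads in any library. Bmp6, a ligand of the same class as Bmp7, fell, with 22.7 and 23.0 CPM in the knockdown libraries and 26.8 and 26.7 CPM in the control libraries (log2 change -0.23, SE 0.06, edgeR adjusted p = 0.00366). Gdf11, which signals through the activin branch (Smad2 and Smad3), was the most abundant ligand of the family per kilobase and rose, with 134 and 130 CPM in the knockdown libraries and 87.2 and 83.0 CPM in the control libraries (log2 change 0.63, SE 0.04, edgeR adjusted p = 6.07e-16). Gdf6, a BMP-type ligand, and Gdf15, a stress-induced cytokine, were rare. They were called higher by 1.53 and 2.27 on the log2 scale (edgeR adjusted p = 0.00787 and 0.00345), at means of 0.691 and 0.457 CPM in the knockdown and 0.236 and 0.0918 CPM in the control. Gdf6 lost its call without knockdown replicate 1, control replicate 1 or control replicate 2, with adjusted p-values of 0.106, 0.0564 and 0.123 from edgeR. Gdf15 lost its call without knockdown replicate 2 or control replicate 2, with adjusted p-values of 0.0596 and 0.092 from edgeR.

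Of 10 other receptor and co-receptor genes tested, 5 fell and 1 rose, with a median log2 change of -0.18. The calls made up 60% of the list, against 46.7% of all genes tested (23.3% lower and 23.5% higher). The largest called decrease was that of Acvr2b, a type II receptor shared with activin, which had 4.06 and 3.72 CPM in the knockdown libraries, against 5.74 and 5.71 CPM in the control libraries (log2 change -0.56, SE 0.14, edgeR adjusted p = 0.00184). The co-receptor genes Rgma and Rgmb, whose membrane-anchored products bind BMPs, fell by 0.28 and 0.34 on the log2 scale (edgeR adjusted p = 6.73e-10 and 0.00049). Neo1, which encodes the RGM receptor neogenin, rose slightly, by 0.10 on the log2 scale (edgeR adjusted p = 0.00286), a call lost without control replicate 1 (edgeR adjusted p = 0.0672).

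Other antagonists that were called moved both ways. Of 14 tested, 5 rose and 3 fell, with a median log2 change of -0.02. The calls made up 57.1% of the list, against 46.7% of all genes tested. Chrdl1, a Chordin-like BMP antagonist made by astrocytes, had the largest called increase in this list, with 128 and 121 CPM in the knockdown libraries and 71.7 and 76.9 CPM in the control libraries (log2 change 0.74, SE 0.04, edgeR adjusted p = 6.04e-17). Crim1, a transmembrane protein with Chordin-type repeats, had 197 and 202 CPM in the knockdown libraries and 139 and 135 CPM in the control libraries (log2 change 0.54, SE 0.03, edgeR adjusted p = 1.06e-15). Fst, which encodes the activin and BMP binder follistatin, and Bmper, a Chordin-type modulator, also rose, by 0.66 and 0.59 on the log2 scale (edgeR adjusted p = 0.000197 and 0.000535), and were named after their values were seen. Nbl1, an antagonist of the DAN family, fell by 0.31 on the log2 scale (edgeR adjusted p = 3.56e-07). Fstl5, a follistatin-like gene, had 3.35 and 3.44 CPM in the knockdown libraries and 7.39 and 6.59 CPM in the control libraries (log2 change -1.04, SE 0.14, edgeR adjusted p = 2.24e-07).

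Of the 7 tested genes for tolloid relatives, enhancers and propeptide convertases, 1 rose and 1 fell, with a median log2 change of -0.04. This was 28.6% of the list, against 46.7% called among all genes tested. Pcolce, whose product helps Bmp1 to process procollagen, fell to 6.14 and 6.07 CPM in the knockdown libraries, against 12.4 and 12.2 CPM in the control libraries (log2 change -1.01, SE 0.10, edgeR adjusted p = 7.32e-10). Pcsk5, a convertase of secreted precursors, rose, with 14.7 and 16.0 CPM in the knockdown libraries and 10.3 and 12.3 CPM in the control libraries (log2 change 0.44, SE 0.09, edgeR adjusted p = 0.000158).

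**Figure D3:**
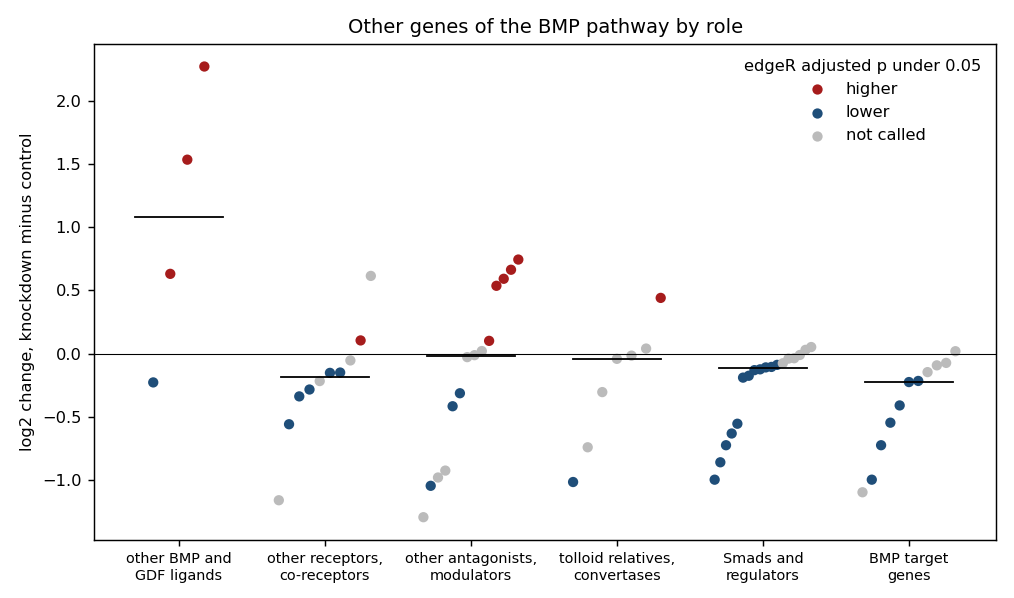
Log2 change of each tested gene of 6 lists of the pathway, knockdown minus control, with points coloured by edgeR call and a line at each list's median; Smad6 and Smad7 are in the last 2 lists. The Smad and target lists hold lower calls and no higher call, while the antagonist list holds 5 higher and 3 lower calls.

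Inside the cell, called genes for Smads and their regulators, a list that also holds inhibitors of the signal, were all lower. Of 18 such genes, 12 fell and 0 rose with edgeR, with a median log2 change of -0.12. The calls made up 66.7% of the list, against 46.7% of all genes tested (23.3% lower and 23.5% higher). At an unadjusted p under 0.05 also 12 were lower and 0 higher, DESeq2 called 11 lower and 0 higher, and limma 12 and 0. Most of these decreases were small. Smad1, Smad5 and Smad4, named after their values were seen, fell by 0.12, 0.09 and 0.10 on the log2 scale (edgeR adjusted p = 0.00531, 0.0139 and 0.0183), and all 3 lost the call without control replicate 1 (edgeR adjusted p = 0.0688, 0.0886 and 0.126). Smad5 and Smad4 also lost it without knockdown replicate 2 (edgeR adjusted p = 0.134 and 0.252), and Smad4 without control replicate 2 (edgeR adjusted p = 0.0765) and with DESeq2 (adjusted p = 0.0751). Smad9, the rarest of the BMP Smads and also named afterwards, had 1.33 and 1.36 CPM in the knockdown libraries and 2.57 and 2.29 CPM in the control libraries (log2 change -0.86, SE 0.23, edgeR adjusted p = 0.00271), with an adjusted p of 0.0535 without control replicate 1. Skil and Ski, which encode Smad co-repressors, fell by 0.63 and 0.17 on the log2 scale (edgeR adjusted p = 2.04e-13 and 1.18e-05). Zeb2, a Smad-binding repressor that promotes myelination in mice, had 172 and 163 CPM in the knockdown libraries and 252 and 241 CPM in the control libraries (log2 change -0.55, SE 0.03, edgeR adjusted p = 9.1e-16).

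Of 11 tested BMP target genes, 6 fell and 0 rose with edgeR, with a median log2 change of -0.22. The calls made up 54.5% of the list, against 46.7% of all genes tested (23.3% lower and 23.5% higher). At an unadjusted p under 0.05 the counts were also 6 and 0, DESeq2 gave 5 lower and 0 higher, and limma 6 and 0. Smad7, an inhibitory Smad that shuts off the receptor, had 3.14 and 3.18 CPM in the knockdown libraries and 6.01 and 6.59 CPM in the control libraries (1.99-fold lower, SE 0.15 on the log2 scale, edgeR adjusted p = 1.08e-06). Smad6, the inhibitory Smad that is most selective for BMP receptors, had 2.26 and 3.88 CPM in the knockdown libraries and 5.42 and 4.73 CPM in the control libraries (log2 change -0.72, SE 0.19, edgeR adjusted p = 0.00233). Its knockdown libraries differed widely, so the log2 change was -0.39 without knockdown replicate 1 (edgeR adjusted p = 0.0863), -1.17 without knockdown replicate 2 and -0.62 without control replicate 1 (edgeR adjusted p = 0.108). TGF-beta induces Smad7 as well, and both genes belong to the Smad list too.

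The Id genes encode inhibitors of basic helix-loop-helix factors such as OLIG2. Id2 had 48.5 and 47.4 CPM in the knockdown libraries and 63.2 and 64.1 CPM in the control libraries (log2 change -0.41, SE 0.05, edgeR adjusted p = 3.38e-09). Id4 had 76.8 and 73.3 CPM in the knockdown libraries and 87.2 and 88.0 CPM in the control libraries (log2 change -0.22, SE 0.04, edgeR adjusted p = 1.55e-05). Id3 had 62.6 and 75.6 CPM in the knockdown libraries and 105 and 96.7 CPM in the control libraries, and Id1 had 10.9 and 14.1 CPM in the knockdown libraries and 13.6 and 12.7 CPM in the control libraries. Id3 was thus lower in both knockdown libraries (log2 change -0.55, edgeR adjusted p = 0.0254), whereas the groups overlapped for Id1 (log2 change -0.07, edgeR adjusted p = 0.586). For Id1 the outcome turned on 1 library, since the log2 change was 0.10 without knockdown replicate 1 (edgeR adjusted p = 0.466) and -0.27 without knockdown replicate 2 (edgeR adjusted p = 0.0381). Summed, the 4 Id genes had 199 and 210 CPM in the knockdown libraries and 269 and 262 CPM in the control libraries. Hes1, a target shared with Notch, fell by 0.22 on the log2 scale (edgeR adjusted p = 0.0177), a call lost without knockdown replicate 1 (edgeR adjusted p = 0.088), without control replicate 2 (edgeR adjusted p = 0.131) and with DESeq2 (adjusted p = 0.0896). Hey1 and Atoh8 had log2 changes of 0.02 and -0.15 and were not called (edgeR adjusted p = 0.619 and 0.27), and Hey1 was at -0.0172 with library size as the only scaling. Id1, Id3, Hes1, Hey1 and Atoh8 were named after their values were seen. The part of the cell type marker lists above in the target and Smad decreases was not tested.

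**Figure D4:**
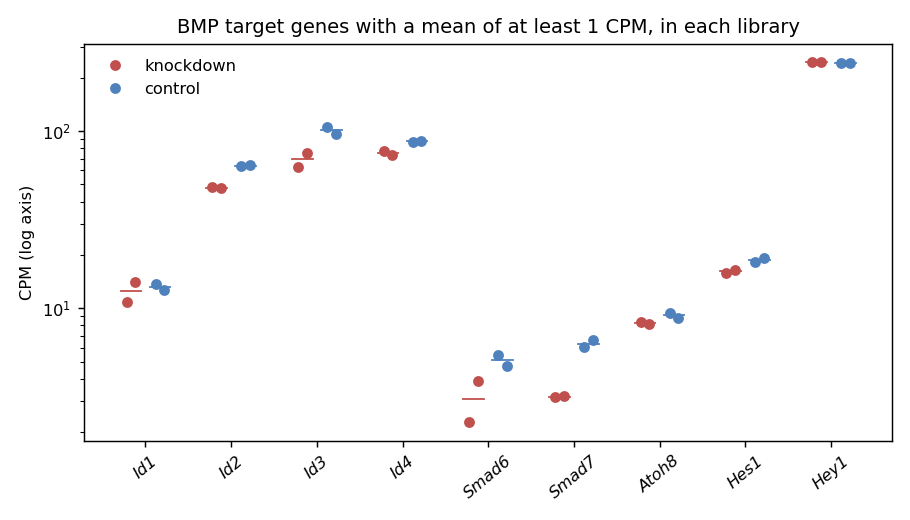
Level in CPM, on a log axis, of the 9 BMP target genes that averaged 1 CPM or more, one point per library (knockdown left of control, n = 2 each) with a bar at the group mean. Id2, Id3, Id4, Smad6, Smad7 and Hes1 were called lower, Id1, Atoh8 and Hey1 were not called, and the knockdown points of Smad6, at 2.26 and 3.88 CPM, lie far apart.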

How the data were processed

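RNA-seq was available for 2 knockdown and 2 control libraries of differentiated NSCs, each from 100 ng of total RNA and made with an unstranded kit. The deposited table gave raw counts of reads for each gene as the authors counted them. The submitters' processing notes list build mm9 and the tools HTSeq 0.6.1, SAMtools 0.1.18, Bowtie 0.12.7 and TopHat 1.3.3. The study's published methods name a later mouse build and other aligner versions, without tying them to this count table. Annotation release and strand setting were not given in the sources used here. The table's rows for reads outside genes, ambiguous or aligned more than once (0.427% to 22.2% of listed reads each) stayed out of library sizes. Deposited tables of the authors' own fold changes, p-values and ontology terms were not used.

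Knockdown was compared with control over all genes with edgeR 4.0.16 in R 4.3.3 (filterByExpr with minimum count 10 and minimum total 15, TMM scaling, robust quasi-likelihood test, no covariate), with Benjamini-Hochberg adjustment over 14090 genes. SEs are those implied by the F statistic. Intervals are 95%. The fit was also run on simulated counts in which only a small share of genes changed, so that run does not measure the error rate in these data. Replicates are called biological by the submitters, and whether cultures were independent is not stated further. The common coefficient of variation between replicates, estimated by edgeR over genes, was 2.95%. Exon and coding lengths came from GENCODE M21 (GRCm38), and promoters from RefSeq. Named were all members, up to 4 called genes of each other pathway list averaging 1 CPM or more with the smallest adjusted p, and those called over 2-fold. The members and lists were chosen with earlier results of these data known. Alternatives included other scalings, filters, DESeq2 1.42.0, limma 3.58.1, a replicate block and leaving out each library.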

Additional observations from a re-analysis of the deposited data

Results flagged for a closer look

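In data that the comparison does not use, 2 classes of reads were slightly more frequent in the knockdown. Reads with more than 1 alignment made up 11.2% ± 0.0707 of listed reads in knockdown libraries and 10.8% ± 0.134 in control libraries (SD, n = 2), with both knockdown libraries above both controls. Reads ambiguous between genes made up 0.433% in knockdown libraries and 0.427% in control libraries, again with both knockdown libraries higher. Reads in no annotated gene went the other way, at 20.3% ± 0.339 in knockdown libraries and 21.7% ± 0.601 in control libraries, with both knockdown libraries below both controls. The part of these classes in the results above was not tested.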

How the results depend on the processing

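For the members, 123 of 129 values under 13 alternatives kept their direction and their side of the threshold. The exceptions were Bmpr2 without knockdown replicate 2 and without control replicate 1, Bambi without knockdown replicate 1, without control replicate 1 and with DESeq2, and Bmp2, which turned to 0.62 without knockdown replicate 1 and was -1.48 without knockdown replicate 2. Without control replicate 1, 4 members were called lower, against 6 with all libraries, and 1 was called higher under each alternative. Bmp4 ranged from -3.00 to -2.73 on the log2 scale and Bmpr1b from 0.32 to 0.39. Bmp2 gave no value under the filter of 1 CPM. For the other pathway genes named, 391 of 414 values were kept, 20 lost the call, and Id1 gained one at -0.27 without knockdown replicate 2 and turned to 0.10 without knockdown replicate 1. Hey1, not called, turned to -0.0172 with library size alone. Over all genes, leaving out a library gave 2455 to 2855 higher and 2435 to 2875 lower calls. Scaling by library size alone called 2677 higher and 3964 lower genes, a share of 40.3% higher in place of 50.3%. The replicate numbers were not taken as a pairing, since the labels name nothing shared and deviations of same-numbered libraries (2 pairs) correlated at 0.0538. With a replicate block, 6 members were lower and 1 higher, all genes gave 3404 higher and 3377 lower calls, and Id3 had an adjusted p of 0.083. Depth limits Bmp2, Gdf6 and Gdf15, which had at most 39 reads in any library.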
